A study of Rattus norvegicus with 8 samples.

Results

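The insulin-like growth factor (IGF) genes described here are 10 genes taken by name: the ligands Igf1 and Igf2, the receptors Igf1r and Igf2r, and the 6 binding proteins Igfbp2 to Igfbp7. Each name matched 1 of the 32623 rat genes counted in the outflow veins. All 10 genes passed the filter on low counts (a mean normalized count of at least 100 over the 8 veins), which left 11682 genes for testing.

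IGF1 and IGF2 are small peptides related to insulin that promote growth and survival of many cells, smooth muscle cells and fibroblasts of the vessel wall included. They act through the type 1 IGF receptor, a tyrosine kinase encoded by Igf1r, which passes the signal through adaptor proteins to PI3K and Akt. The IGF2 receptor has no kinase and carries IGF2 to lysosomes for breakdown, and the binding proteins hold the ligands in tissue fluid and extracellular matrix (ECM) and can limit or prolong their action.

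Each of the 8 libraries came from a different Sprague Dawley rat with a femoral-epigastric arteriovenous fistula (AVF), and no gene was altered in any of them. In 4 rats (BAPN 1 to 4) the epigastric outflow vein was wrapped in a bilayer scaffold loaded with β-aminopropionitrile (BAPN), an inhibitor of lysyl oxidases, which crosslink collagen and elastin in the ECM, and in 4 rats (Vehicle 1 to 4) in the same scaffold without BAPN. BAPN 1 to 3 and Vehicle 1 and 2 were female, BAPN 4 and Vehicle 3 and 4 were male, and every vein was taken on day 21. The comparison asks which transcripts of the vein wall differed when the scaffold released BAPN, and the age of the rats is not given in the sources used here.

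Total counts ranged from 45039451 to 52241007 with BAPN and from 19548203 to 22442050 with vehicle, so depth separated the groups, and any effect of how the libraries were prepared or sequenced by group cannot be told apart from BAPN. Markers of the vein wall were abundant in every library. Summed expression of 5 fibroblast markers was 3185 to 4592 CPM (read counts divided by library size with TMM factors) with BAPN and 3386 to 6302 CPM with vehicle, and that of 5 smooth muscle markers was 1580 to 4071 and 3020 to 5687 CPM. The 3 endothelial markers listed (Cdh5, Vwf and Tek) summed to 161.6 to 302.9 CPM with BAPN and 405.6 to 1103 CPM with vehicle. Over all libraries, markers of skeletal muscle summed to 1.87 to 52.7 CPM, of adipocytes to 20.9 to 190.7 CPM, of Schwann cells to 19.1 to 217.8 CPM and of keratinocytes to 0.544 to 10.9 CPM. In bulk tissue, fewer cells of a type and less RNA per cell cannot be told apart.

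The sequences just upstream of the 4 IGF genes that passed the test are shown first, since their transcription starts there. Each is the 250 bases before the annotated start in RefSeq, build GRCr8, 5′ to 3′ on the gene's own strand, and 10 of the 10 genes had such a window in that table. Capitals mark matches, on either strand, to the TATA box TATAAA, the GC box GGGCGG, the E box CACGTG, the AP-1 site TGACTCA or the forkhead (FOXO) site GTAAACA. No match overlapped another.
Igf2, chr1:207253981-207254230, minus strand: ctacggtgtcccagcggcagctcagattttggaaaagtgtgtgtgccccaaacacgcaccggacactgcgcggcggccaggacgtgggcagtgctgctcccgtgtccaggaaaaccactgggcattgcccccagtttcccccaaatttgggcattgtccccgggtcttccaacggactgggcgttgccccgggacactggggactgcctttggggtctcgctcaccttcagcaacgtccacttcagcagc
Igf2, chr1:207250476-207250725, minus strand: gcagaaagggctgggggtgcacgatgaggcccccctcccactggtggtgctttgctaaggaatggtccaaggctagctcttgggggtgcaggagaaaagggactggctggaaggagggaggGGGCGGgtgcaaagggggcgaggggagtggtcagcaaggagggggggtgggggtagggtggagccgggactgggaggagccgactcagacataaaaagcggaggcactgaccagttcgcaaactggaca
Igf1r, chr1:130959747-130959996, plus strand: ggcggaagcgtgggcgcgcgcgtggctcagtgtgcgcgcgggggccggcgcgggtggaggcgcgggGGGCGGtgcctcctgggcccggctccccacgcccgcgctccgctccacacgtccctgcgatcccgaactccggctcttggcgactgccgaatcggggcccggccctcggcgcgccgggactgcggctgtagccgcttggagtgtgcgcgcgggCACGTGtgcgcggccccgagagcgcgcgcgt
Igfbp5, chr9:81914188-81914437, minus strand: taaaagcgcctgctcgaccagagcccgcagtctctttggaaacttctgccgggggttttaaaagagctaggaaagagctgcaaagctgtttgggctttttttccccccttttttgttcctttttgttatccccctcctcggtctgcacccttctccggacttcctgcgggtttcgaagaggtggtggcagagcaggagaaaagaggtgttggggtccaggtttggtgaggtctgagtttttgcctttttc
Igfbp6, chr7:135154669-135154918, plus strand: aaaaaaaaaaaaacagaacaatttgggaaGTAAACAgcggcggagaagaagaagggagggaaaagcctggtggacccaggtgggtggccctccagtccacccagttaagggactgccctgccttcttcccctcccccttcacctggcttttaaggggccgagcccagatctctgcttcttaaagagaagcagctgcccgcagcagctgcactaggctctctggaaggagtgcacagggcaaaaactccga

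Of all 11 windows of the IGF genes, that of Igf1r was the richest in G and C, at 79.6% of its bases, and held a GC box 184 to 179 bases and an E box 31 to 26 bases before the start. The Igf2 windows, at 62.4% and 63.6% G and C, held a GC box 129 to 124 bases before the second start and none of the 5 motifs before the first. The Igfbp6 window (54.8%) held a FOXO site 221 to 215 bases upstream, and the Igfbp5 window (51.6%) held none of these letters. Among 33469 rat windows of the same length, 12.9% held the TATA box, 30.5% the GC box, 5.59% the E box, 4.05% the AP-1 site and 3.21% the FOXO site. Of the genes that did not pass, Igf2r had 2 GC boxes and 2 E boxes, Igfbp7 had 4 GC boxes, Igfbp2 had 1 GC box and 1 E box, Igfbp4 had a TATA box 40 to 35 bases upstream, and Igf1 and Igfbp3 had none. These matches are descriptions of sequence and are no evidence of binding.

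With BAPN, 4 of the 10 IGF genes were lower at an FDR below 0.05, namely Igf2, Igf1r, Igfbp5 and Igfbp6, and none was higher. They were tested by the quasi-likelihood method of edgeR, with false discovery rates (FDR, Benjamini-Hochberg) taken over all 11682 genes, of which 9.25% were called lower and 7.5% higher. DESeq2 and limma-voom called the same number, 4, where DESeq2 called 15.1% of all genes lower and 12.3% higher and limma-voom called 15.3% in either direction. For these 4 genes every BAPN rat lay below every vehicle rat, which held for 11.9% of all tested genes, and no overlap in the higher direction for 12.7%. The log2 fold change of BAPN against vehicle (log2 fold below, with its limma-voom standard error, SE) was below 0 for 10 of 10 IGF genes, from -1.86 to -0.02, with a median of -0.64, whereas 48.4% of all tested genes were below 0 and their median was 0.02. The value of Igf1, close to 0, changed sign in 8 of 20 alternative fits. No test was made of the 10 genes as a list. Levels are compared here within a gene and not between genes, since no transcript lengths were used.

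**Figure D1:**
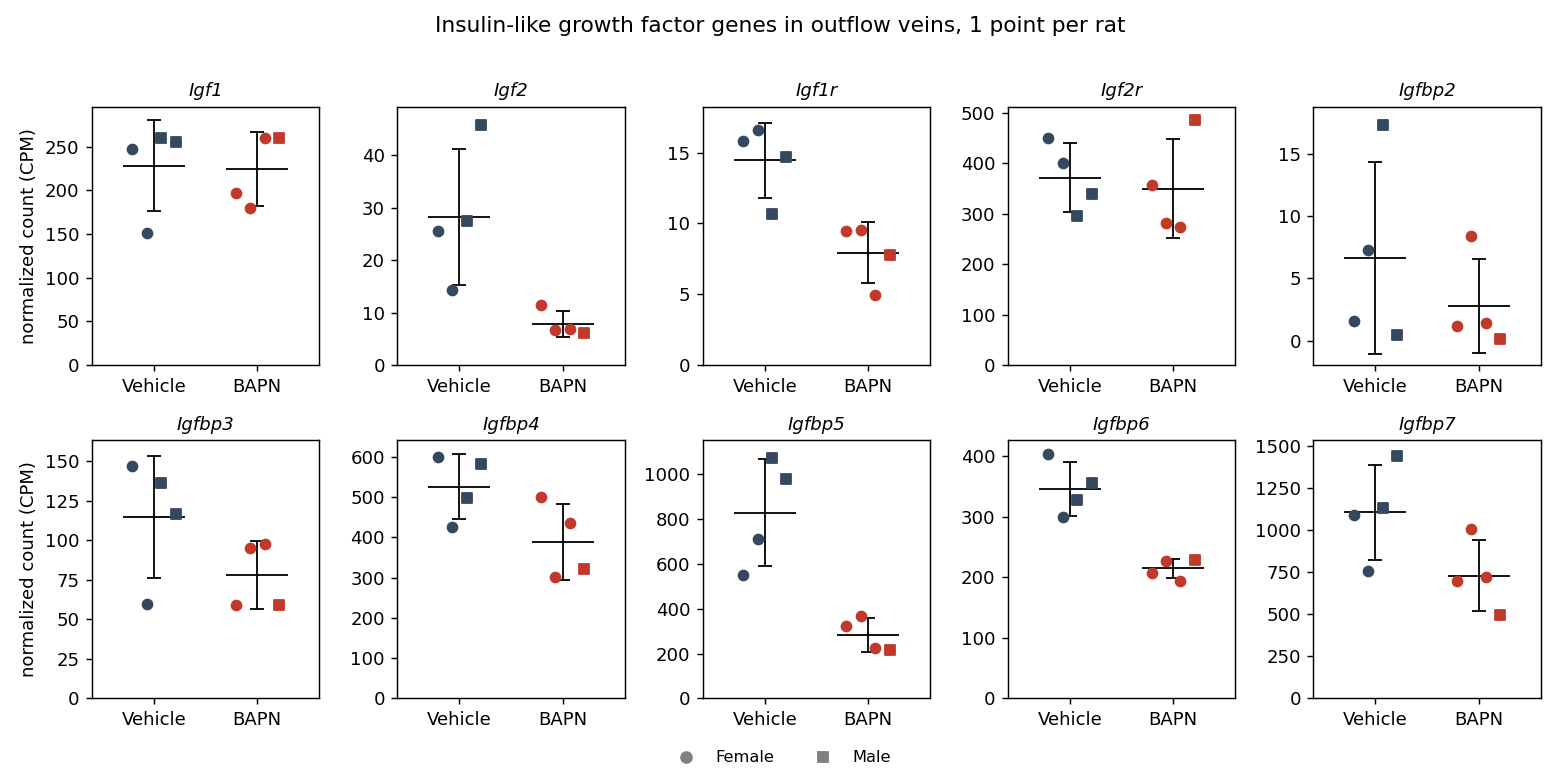
Normalized counts (CPM, linear axes of different scale) of the 10 IGF genes, with 1 point per rat (circles, female; squares, male), the mean as a horizontal line and the SD as bars, 4 rats per group. The BAPN points lie below all vehicle points for Igf2, Igf1r, Igfbp5 and Igfbp6, and the groups overlap in the other 6 panels.

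Among the ligands, Igf2, the fetal growth factor that persists in some adult tissues, was lower with BAPN, and Igf1, the main mediator of growth hormone, did not pass the test. Igf2 (ENSRNOG00000020369) was at 11.4, 6.67, 6.90 and 6.12 CPM in BAPN 1 to 4 and at 25.5, 14.3, 27.4 and 45.7 CPM in Vehicle 1 to 4. The lowest vehicle rat, Vehicle 2, was above the highest BAPN rat, BAPN 1, and the vehicle rats spread far more widely than the BAPN rats. The means were 7.77 ± 2.44 and 28.2 ± 13.0 CPM (SD, n = 4 per group), or a log2 fold of -1.86 (SE 0.35, FDR 0.0142 in edgeR and 5.21e-06 in DESeq2). The female rats were at 6.67 to 11.4 CPM with BAPN and 14.3 to 25.5 CPM with vehicle, and the male BAPN rat was at 6.12 CPM against 27.4 to 45.7 CPM in the vehicle males. The call of Igf2 remained in all 8 fits that left out 1 rat, with log2 folds from -2.11 to -1.53. Among the females alone it was lost (log2 fold -1.26, FDR 0.107 in edgeR).

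Igf1 (ENSRNOG00000004517) was at 197, 180.2, 260.5 and 261 CPM in BAPN 1 to 4 and at 247, 151, 260.1 and 256 CPM in Vehicle 1 to 4. The groups overlapped, and the lowest value was that of Vehicle 2. The means were 225 ± 42.0 and 228.5 ± 52.0 CPM (SD, n = 4 per group), or a log2 fold of -0.02 (SE 0.21, FDR 0.943 in edgeR). The 95% interval from limma-voom ran from -0.48 to 0.48, and changes within it are not excluded. The number of Igf1 reads per Igf2 read was 17.3 to 42.6 in the BAPN rats (mean 31.2 ± 11.3) and 5.60 to 10.6 in the vehicle rats (mean 8.84 ± 2.21, SD, n = 4 in each group), without overlap. This ratio depends on the lengths of both transcripts and is given to compare libraries, with no test.

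Among the receptors, Igf1r was lower with BAPN, and Igf2r, whose product has no kinase domain, did not pass the test. Igf1r (ENSRNOG00000014187) was at 9.44, 9.57, 4.96 and 7.74 CPM in BAPN 1 to 4 and at 15.8, 16.6, 10.7 and 14.7 CPM in Vehicle 1 to 4. BAPN 1 and BAPN 2 were close below Vehicle 3, the lowest vehicle rat. The means were 7.93 ± 2.15 and 14.5 ± 2.63 CPM (SD, n = 4 per group), or a log2 fold of -0.87 (SE 0.25, FDR 0.0392 in edgeR and 0.0057 in DESeq2). The call was lost in 7 of the 8 fits that left out 1 rat, all but that without Vehicle 3, with FDRs up to 0.0993 (without Vehicle 1), while the log2 fold stayed between -0.99 and -0.70. It was also lost without a filter on low counts (FDR 0.0557).

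Igf2r (ENSRNOG00000014997) was at 357, 282, 274 and 485 CPM in BAPN 1 to 4 and at 450.5, 400.3, 294 and 339 CPM in Vehicle 1 to 4. The highest value of all was that of BAPN 4, and the groups overlapped widely. Igf2r had a log2 fold of -0.09 (SE 0.21, FDR 0.794 in edgeR), with a 95% interval from -0.58 to 0.36. It was 0.01 without BAPN 3 and 0.02 without Vehicle 1.

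Of the 6 binding proteins, Igfbp5 and Igfbp6 were lower with BAPN. Igfbp5, a binding protein that also attaches to ECM, had the largest change among them that passed the test. Igfbp5 (ENSRNOG00000017206) was at 322.5, 368, 223 and 215 CPM in BAPN 1 to 4 and at 551, 712, 1073 and 979 CPM in Vehicle 1 to 4. The lowest vehicle rat was well above the highest BAPN rat, and the vehicle males were above the vehicle females. The means were 282 ± 75.5 and 829 ± 240.3 CPM (SD, n = 4 per group), or a log2 fold of -1.56 (SE 0.25, FDR 0.0111 in edgeR and 2.14e-07 in DESeq2). Females were at 223 to 368 CPM with BAPN and 551 to 712 CPM with vehicle, and the BAPN male was at 215 CPM against 979 to 1073 CPM in the vehicle males. The call remained in all 8 fits that left out 1 rat, with log2 folds from -1.72 to -1.41, but not among the females alone (FDR 0.0916).

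Igfbp6 binds IGF2 in preference to IGF1. Igfbp6 (ENSRNOG00000010977) was at 208, 227, 194.5 and 229 CPM in BAPN 1 to 4 and at 403, 299, 327.5 and 356 CPM in Vehicle 1 to 4. The BAPN rats lay close together and all below the lowest vehicle rat, Vehicle 2. The means were 214.5 ± 16.4 and 346.4 ± 44.4 CPM (SD, n = 4 per group), or a log2 fold of -0.69 (SE 0.13, FDR 0.0157 in edgeR and 4.47e-06 in DESeq2). The call was lost without Vehicle 1 (FDR 0.0511, log2 fold -0.61) and remained in the other 7 such fits.

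The other 4 binding proteins did not pass the test. Igfbp7, a secreted protein of vessels with low affinity for IGFs, was at 700.2, 1008, 721 and 495 CPM in BAPN 1 to 4 and at 1090, 758, 1134 and 1442 CPM in Vehicle 1 to 4. BAPN 2 lay above Vehicle 2, and the other rats did not cross. The log2 fold of Igfbp7 was -0.60 (SE 0.25, FDR 0.127 in edgeR, 0.0584 in DESeq2), and its 95% interval ran from -1.18 to -0.04. Without the multiple test adjustment its p was 0.0431 in edgeR, and an exact two-sided permutation test gave 0.0571, where 0.0286 is the smallest p that 4 rats against 4 allow.

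Igfbp4, an inhibitor of IGF action in many tissues, was at 499, 301, 437 and 321 CPM in BAPN 1 to 4 and at 601, 426.5, 497 and 581.5 CPM in Vehicle 1 to 4. BAPN 1 and BAPN 3 reached into the vehicle range. Its log2 fold was -0.43 (SE 0.19, FDR 0.149 in edgeR), with a 95% interval from -0.88 to -0.01. Igfbp3, the main carrier of IGFs in plasma, was at 59.2, 95.1, 97.8 and 59.2 CPM in BAPN 1 to 4 and at 147, 59.9, 136 and 117 CPM in Vehicle 1 to 4. Vehicle 2 was at the low end of the BAPN range, and the other vehicle rats were above every BAPN rat. Its log2 fold was -0.56 (SE 0.30, FDR 0.187 in edgeR, 95% interval -1.19 to 0.15). Of the 8 fits without 1 rat, that without Vehicle 2 called it (-0.77, FDR 0.0382) and the other 7 did not, down to -0.42 without Vehicle 1 (FDR 0.379).

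Igfbp2 (ENSRNOG00000016957) had the fewest reads and the widest spread. It was at 1.20, 8.44, 1.41 and 0.146 CPM in BAPN 1 to 4, from 7 to 428 reads, and at 1.59, 7.27, 17.3 and 0.478 CPM in Vehicle 1 to 4. Within each group the values spanned more than the difference between the group means. The log2 fold of -1.25 had an SE of 1.34 (FDR 0.465 in edgeR) and a 95% interval from -4.41 to 1.62, so the data cannot tell a large fall from a moderate rise. Without BAPN 2 the log2 fold of Igfbp2 was -2.87, and without Vehicle 3 it was -0.15.

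**Figure D2:**
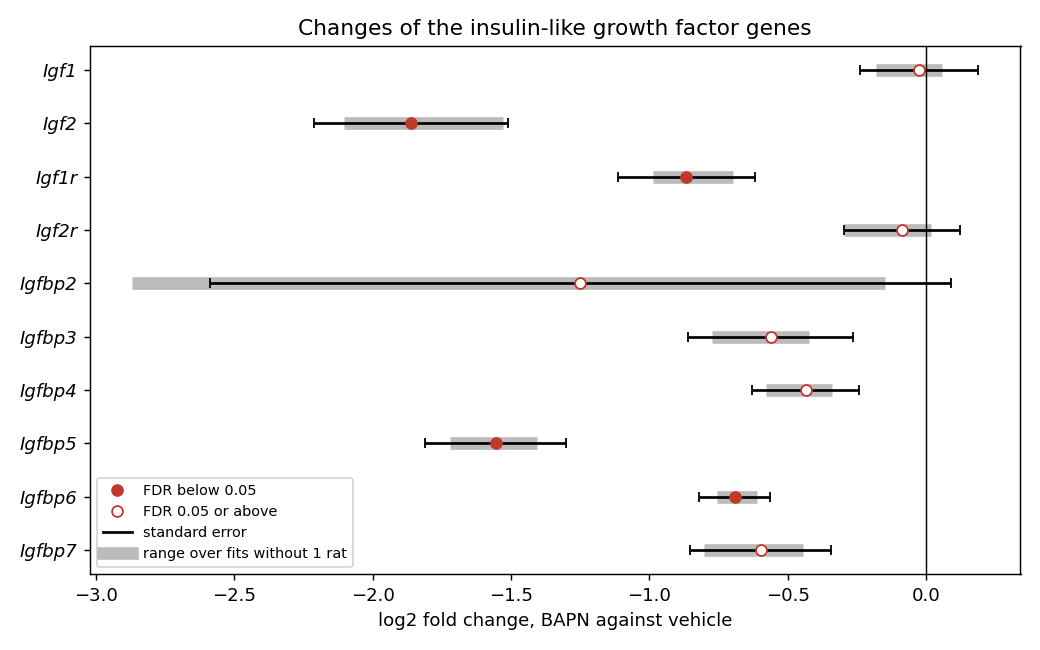
Log2 fold of BAPN against vehicle for the 10 IGF genes (points; filled where the edgeR FDR was below 0.05), with the limma-voom standard error as a black line and the range over the 8 fits without 1 rat as a grey bar. The filled points are Igf2 (-1.86), Igf1r (-0.87), Igfbp5 (-1.56) and Igfbp6 (-0.69), and the grey bars of Igf1 and Igf2r cross 0.

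Summed over the 6 binding proteins, expression was 1319 to 2007 CPM in the BAPN rats (mean 1698 ± 288 CPM) and 2262 to 3476 CPM in the vehicle rats (mean 2929 ± 525 CPM, SD, n = 4 in each group). Igfbp5 took 13.3% to 18.3% of these reads with BAPN (mean 16.5% ± 2.30) and 19.7% to 33.7% with vehicle (mean 28.3% ± 6.13). The shares of the other binding proteins overlapped between the groups, for example 37.5% to 50.2% and 33.5% to 41.5% for Igfbp7 and 15.0% to 27.9% and 15.6% to 21.5% for Igfbp4. The shares describe reads, not molecules, and were not tested.

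Markers of cell types were read in the same edgeR fit, where 9.25% of all tested genes were called lower and 7.5% higher. The summed endothelial level did not overlap between the groups, with Vwf (log2 fold -1.99, FDR 0.0389) and Tek (-1.24, FDR 0.00889) called lower in edgeR and Cdh5 not (-0.97, FDR 0.0736). Cdh5 itself overlapped, at 151.7 CPM in BAPN 1 and 108.4 CPM in Vehicle 2. Vwf varied widely with vehicle, from 106.2 CPM in Vehicle 3 to 767.7 CPM in Vehicle 1. All 5 smooth muscle markers had values below 0, and Myh11 (-1.60, FDR 0.0148), Cnn1 (-1.60, FDR 0.0295) and Des (-0.68, FDR 0.029) passed the test, while Acta2 and Tagln did not. Of 5 fibroblast markers none passed (median -0.30), and of 5 macrophage markers none did (2065 to 2703 CPM with BAPN and 1371 to 2452 CPM with vehicle in sum). In T cell markers, at 21.2 to 66.4 and 11.7 to 25.8 CPM in sum, Cd2 was called higher (1.38, FDR 0.0138), and in adipocyte markers, at 20.9 to 46.2 and 23.4 to 190.7 CPM, Plin1 was called lower (-2.13, FDR 0.0443). Schwann cell markers were at 19.1 to 217.8 and 38.9 to 92.7 CPM, with none called. No marker was at 0 in every library, and the part of cell makeup in the IGF changes was not tested. Lox, whose product BAPN inhibits as an enzyme, was at 354 to 551 CPM with BAPN and 260.4 to 688.5 CPM with vehicle (log2 fold -0.17, FDR 0.678 in edgeR).

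In a fit with treatment and sex, 0 of 10 IGF genes differed between male and female rats at an FDR below 0.05 in edgeR or in DESeq2, and 0 had an unadjusted p below 0.05 in either. Of all tested genes, 0.00856% (1 gene) passed for sex in edgeR and 0.12% (14 genes) in DESeq2. In edgeR 1.89% had an unadjusted p below 0.05. With sex in the fit the treatment FDR was 0.0382 for Igf2, 0.0334 for Igfbp5, 0.0365 for Igfbp6 and 0.0607 for Igf1r, so that of Igf1r no longer passed, at a log2 fold of -0.91. Among the females alone (3 BAPN and 2 vehicle rats) none of the 4 passed in edgeR, with FDRs from 0.0916 for Igfbp5 to 0.126 for Igf1r, and the log2 folds were -1.26 for Igf2, -1.02 for Igf1r, -1.05 for Igfbp5 and -0.74 for Igfbp6. In that fit 0.762% of all tested genes passed.

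A list of 46 further genes of the IGF axis, from growth hormone input to Akt and the FOXO factors, was then read in the same fit. Of these, 37 were tested, and 8 (21.6%) passed at an FDR below 0.05, against 16.8% of all tested genes. Lower with BAPN were Ghr, Irs1, Irs2, Pik3r1, Foxo1 and Foxo3, higher were M6pr and Jak2, and 29 did not pass. The log2 fold was below 0 for 27 of the 37, with a median of -0.24. DESeq2 called 12 lower and 2 higher, where 27.4% of all tested genes were called. The share called in edgeR was near that of all genes, and no list test was made. Among the females alone Irs2 was called and the other 7 were not, with FDRs in edgeR from 0.057 for Irs1 to 0.206 for Pik3r1. The log2 folds among females were -1.98 for Irs1, -1.40 for Foxo1, -1.01 for Foxo3, -1.08 for Ghr, -0.57 for Pik3r1, 0.72 for Jak2 and 0.72 for M6pr.

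**Figure D3:**
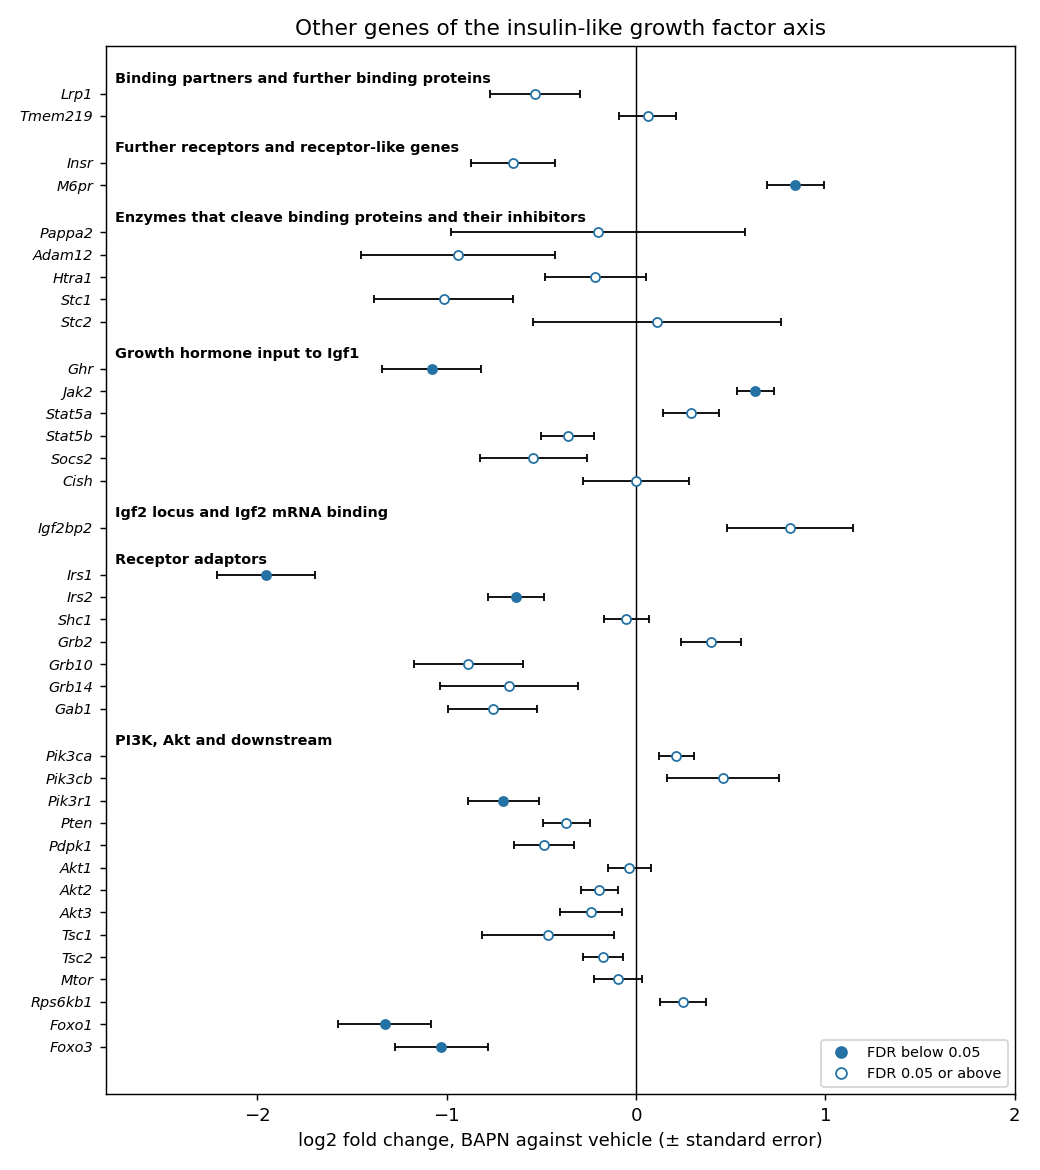
Log2 fold of BAPN against vehicle (± limma-voom standard error) for the 37 tested genes of the IGF axis, grouped by role and filled where the edgeR FDR was below 0.05. The filled points to the left of 0 are Ghr, Irs1, Irs2, Pik3r1, Foxo1 and Foxo3, and those to the right are M6pr and Jak2.

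Irs1 and Irs2 encode adaptor proteins that the activated IGF1 and insulin receptors phosphorylate. Irs1 (ENSRNOG00000014597) was at 8.96, 10.3, 5.77 and 9.35 CPM in BAPN 1 to 4 and at 42.4, 23.5, 26.2 and 41.1 CPM in Vehicle 1 to 4. The groups were far apart, with means of 8.59 ± 1.97 and 33.3 ± 9.84 CPM (SD, n = 4 in each group) and a log2 fold of -1.95 (SE 0.26, FDR 0.00576 in edgeR). This call remained without any 1 of the 8 rats.

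Irs2 was at 23.3, 24.1, 24.3 and 34.3 CPM in BAPN 1 to 4 and at 41.7, 45.9, 37.6 and 39.3 CPM in Vehicle 1 to 4. BAPN 4, the male of its group, was nearest to the vehicle rats. Irs2 had a log2 fold of -0.63 (SE 0.15, FDR 0.0247 in edgeR), and the call was lost without BAPN 1, 2 or 3 or Vehicle 1 (FDR up to 0.0662). Of the other 5 tested adaptors none passed in edgeR, where 3 had an unadjusted p below 0.05 (Grb2, Grb10 and Gab1). Such values were common, since the unadjusted edgeR p of Igfbp7, 0.0431, ranked 3972 among the 11682 tested genes. DESeq2 called Grb10 and Gab1 (log2 fold -0.77, FDR 0.0143), and it called 27.4% of all tested genes. Grb2 and Gab1 are named because of their values. The adaptor gene Shc1 was at 259.7 ± 9.05 and 269 ± 30.9 CPM (log2 fold -0.05, FDR 0.779), and Grb10, whose product restrains the receptor's signal, was at 124.5 ± 37.8 and 230.0 ± 91.3 CPM (-0.89, FDR 0.0658). Of 20 alternatives, Grb10 was called in 2, without Vehicle 2 (FDR 0.0331) and in DESeq2 (FDR 0.0168). It was -0.59 without Vehicle 4 (FDR 0.136) and -0.39 among the females alone.

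Downstream of the adaptors, 3 of 14 genes (21.4%) passed in edgeR, near the 16.8% of all tested genes. Foxo1 and Foxo3 are transcription factors that Akt keeps out of the nucleus when IGF or insulin signals. Foxo1 was at 20.7, 17.6, 11.1 and 11.1 CPM in BAPN 1 to 4 and at 50.2, 36.8, 28.0 and 36.9 CPM in Vehicle 1 to 4, without overlap. The log2 fold was -1.33 (SE 0.25, FDR 0.0148 in edgeR), and the call remained in all 8 fits that left out 1 rat.

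Foxo3 was at 34.5, 22.5, 14.5 and 19.8 CPM in BAPN 1 to 4 and at 51.4, 44.8, 36.5 and 53.5 CPM in Vehicle 1 to 4. BAPN 1 was just below Vehicle 3. Foxo3 had a log2 fold of -1.03 (SE 0.25, FDR 0.0267 in edgeR), and the call was lost without BAPN 2, 3 or 4 or Vehicle 1 or 4 (FDR up to 0.0721, log2 fold -0.86 without BAPN 3).

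Pik3r1, the regulatory subunit of PI3K, was at 66.9, 50.8, 41.9 and 44.0 CPM in BAPN 1 to 4 and at 93.1, 64.4, 72.3 and 101 CPM in Vehicle 1 to 4. BAPN 1 was above Vehicle 2, so the groups overlapped. Pik3r1 had a log2 fold of -0.70 (SE 0.19, FDR 0.037 in edgeR), and the call remained in 2 of the 8 fits that left out 1 rat, those without BAPN 1 or Vehicle 2. Outside those, the FDR ranged up to 0.0989 (without BAPN 3), and the call was also lost without a filter on low counts and with sex in the fit. The Akt kinases Akt1 (231 ± 20.0 and 237 ± 17.7 CPM, log2 fold -0.03, FDR 0.852) and Akt2 (99.4 ± 5.27 and 114 ± 7.59 CPM, -0.19, FDR 0.176) did not pass in edgeR.

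Among genes of growth hormone input, the receptor gene Ghr was at 28.9, 26.7, 14.8 and 19.1 CPM in BAPN 1 to 4 and at 67.5, 32.0, 44.0 and 45.6 CPM in Vehicle 1 to 4. Vehicle 2 was close to BAPN 1, and the groups did not overlap. The log2 fold was -1.08 (SE 0.26, FDR 0.0283 in edgeR), and the call was lost without BAPN 3 or 4 or Vehicle 1, 3 or 4 (FDR up to 0.0734, log2 fold -0.86 without Vehicle 1).

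Jak2, the kinase that binds this receptor and many cytokine receptors, was at 179, 190.1, 177 and 166.5 CPM in BAPN 1 to 4 and at 107, 115, 116 and 123 CPM in Vehicle 1 to 4. All BAPN rats were above all vehicle rats, and the spread within each group was small. Jak2 had a log2 fold of 0.63 (SE 0.10, FDR 0.00946 in edgeR), and the call remained without any 1 of the 8 rats. Stat5a, a transcription factor activated by Jak2, did not pass (66.7 ± 3.69 and 54.6 ± 11.0 CPM, log2 fold 0.29, FDR 0.189), and neither did the other 3 genes of this group.

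Among further receptors, M6pr, the smaller mannose 6-phosphate receptor that, unlike the product of Igf2r, does not bind IGF2, was at 29.9, 24.2, 24.7 and 29.7 CPM in BAPN 1 to 4. It was at 18.1, 13.7, 14.5 and 14.3 CPM in Vehicle 1 to 4, all below the BAPN rats. M6pr had a log2 fold of 0.84 (SE 0.15, FDR 0.0107 in edgeR), and the call remained without any 1 of the 8 rats. The insulin receptor gene Insr, at 21.1 ± 3.79 and 33.1 ± 11.7 CPM, did not overlap between the groups but did not pass in edgeR (log2 fold -0.65, FDR 0.0807), whereas DESeq2 called it (FDR 0.0399). Its vehicle spread came from Vehicle 1, at 50.8 CPM against 26.9 to 28.0 CPM in the other vehicle rats, and without Vehicle 1 the log2 fold was -0.37 (FDR 0.176 in edgeR).

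**Figure D4:**
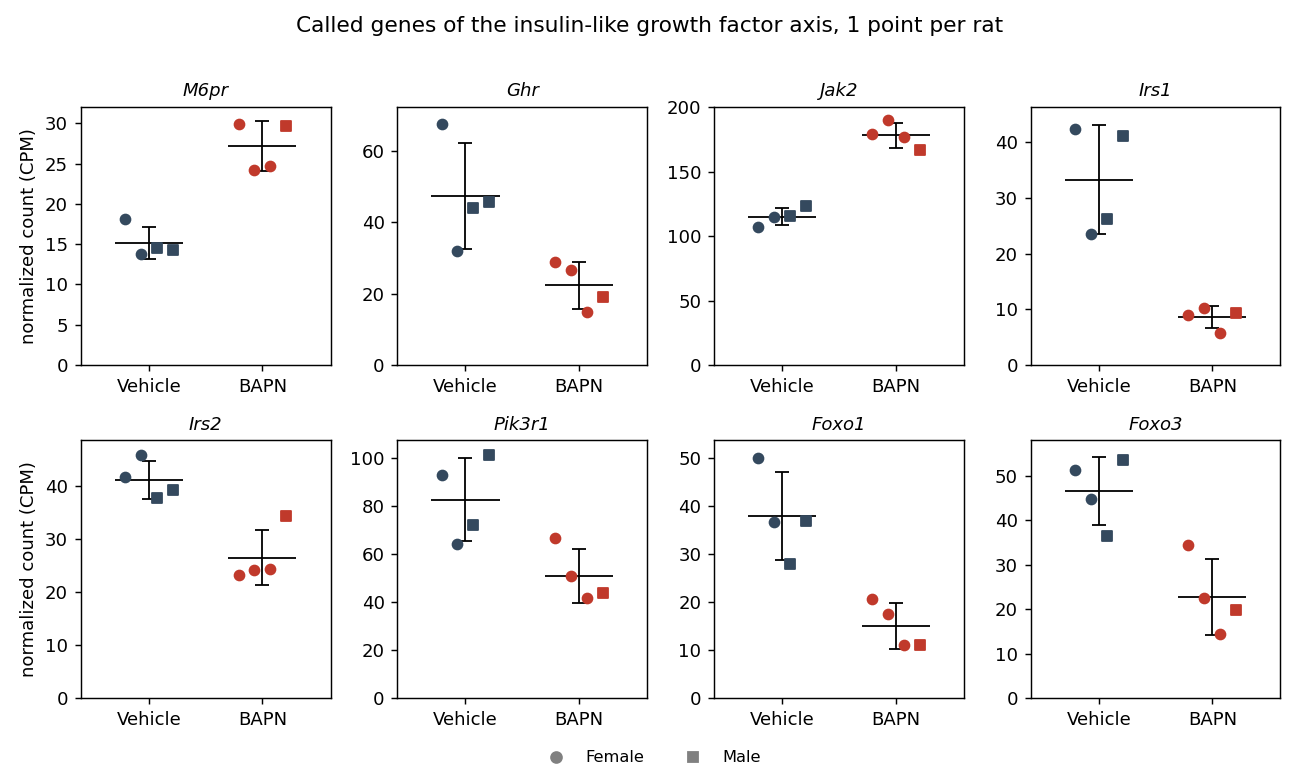
Normalized counts (CPM, linear axes of different scale) of the 8 genes of the IGF axis that passed in edgeR, with 1 point per rat (circles, female; squares, male), the mean as a horizontal line and the SD as bars, 4 rats per group. M6pr and Jak2 are higher with BAPN, the other 6 genes are lower, and only in the Pik3r1 panel do the groups overlap.

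None of the 5 tested proteases and inhibitors that set the breakdown of binding proteins passed in edgeR. The protease inhibitor gene Stc1, named for its values, had an unadjusted p below 0.05 and was called by DESeq2 (FDR 0.0331), which called 27.4% of all tested genes. Htra1, a secreted serine protease, was at 465 ± 78.2 and 539 ± 195 CPM (SD, n = 4 in each group; log2 fold -0.21, FDR 0.574), and Adam12, a metalloprotease, at 34.4 ± 17.4 and 66.0 ± 39.5 CPM (-0.94, FDR 0.203). Without Vehicle 4 these values were -0.01 for Htra1 and -0.51 for Adam12. Among binding partners, the endocytic receptor Lrp1 was at 1174 ± 326 and 1700 ± 377 CPM (-0.53, FDR 0.145) and the Igfbp3 receptor gene Tmem219 at 21.2 ± 2.47 and 20.3 ± 3.19 CPM (0.06, FDR 0.789). Igf2bp2, which encodes a protein that binds Igf2 mRNA, was at 10.7 ± 2.25 and 6.09 ± 3.01 CPM (0.81, FDR 0.125). Igfals, Igfbp1, Igfbpl1, Insrr, Adam28, Igf2bp1 and Igf2bp3 were under the filter, with 0 to 93 reads in a library, and Pappa and H19 were not analysed here.

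Across the 8 libraries, the expression of Igf2 followed that of Igfbp5 (Pearson's r of log2 CPM 0.89), Igfbp6 (0.87) and Igfbp4 (0.84) most closely among the IGF genes. After each group's mean was subtracted these values were 0.46, 0.30 and 0.71, and that of Igfbp5 with Igfbp6 went from 0.82 to -0.19, so the values over all libraries include the difference between the groups. Igfbp3 and Igfbp7 had an r of 0.80 over all libraries and 0.72 within groups. The libraries share group and depth, n is 8, and these are descriptions with no p.

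The genes of most similar pattern were sought among 11020 other tested genes with a symbol. Those nearest to Igf2 were Fam171a2 (r = 0.99, within groups 0.97), Pear1 and Rab3d, and those nearest to Igf1r were Ptbp3 (0.99, within groups 0.96), Slc27a6 and Pdpr. Igfbp5 was followed most closely by Arhgap1 (0.98, within groups 0.94), Epha2 and Rgmb. Igfbp6 was followed by Palm (0.99, within groups 0.91), by the adaptor gene Irs1 described above (0.99, within groups 0.90) and by Nfib. These 3 genes were each called lower with BAPN, as were the 3 nearest to Igf2 and the 3 nearest to Igf1r. Choice by correlation over both groups favours such genes, so these calls are no separate result. For the genes that did not pass, the nearest were Rnf185 (0.95), Nudt16l1 and Pde6d for Igf1, Cog7 (0.98), Tor1aip1 and Dusp19 for Igf2r, and Tp53rk (0.96), Spint1 and Setd1a for Igfbp2. For Igfbp3 they were B4galt4 (0.95), Npr2 and Vamp2, for Igfbp4 Tmem201 (0.99), Prx and Sox13, and for Igfbp7 Numbl (0.99), Afap1l2 and Cav1. The highest of 11020 correlations over 8 points is large by its choice, and nothing about common function was tested.

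In the RefSeq annotation of GRCr8, Igfbp2 and Igfbp5 are neighbours, as are Igfbp3 and Igfbp1, and Ins2 lies next to Igf2. Igfbp5 passed the test and Igfbp2 did not, and the difference between them was not tested. The annotation also places other genes over Igf2 (Mir483 and LOC102548568), Igf1r (among them Pgpep1l), Igf2r, Igfbp4 and Igfbp7 (among them Polr2b). The strand setting of the counts is not given in the sources used here, so reads of such partners could have been counted with these genes.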

How the data were processed

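Condition, sex and replicate number of the 8 rats came from the labels. The authors made stranded libraries from ribosome-depleted total RNA, and the submitters' processing notes name bcl2fastq 2.17, Trim Galore and STAR. The authors deposited raw read counts per Ensembl gene, without normalization, for 1 library per rat. The counter, strand setting and genome build are not given in the sources used here.

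Genes with a DESeq2 base mean (mean of counts over size factors) of at least 100, as in the paper's methods, were compared with edgeR 4.0.16 in R 4.3.3 (TMM factors, quasi-likelihood test, treatment alone). FDR values are Benjamini-Hochberg adjusted over 11682 genes with a threshold of 0.05. Standard errors and 95% intervals came from limma 3.58.1 (voom), log2 CPM used a prior count of 2, and exact permutation tests went through 70 arrangements. DESeq2 1.42.0, the nearest to the DESeq plug-in used by the authors, was an alternative. Other alternatives were limma-voom, other scaling factors, other filters, sex as a term, the females by themselves, a replicate block, thinning to the smallest library total and each rat left out. The steps were tested on simulated data.

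Total counts were 45039451 to 52241007 with BAPN and 19548203 to 22442050 with vehicle. Each rat gave 1 library, which counts as 1 replicate, and the spread between rats exceeded counting noise (chi-square per degree of freedom at least 68.6), so no library was taken as a duplicate of another.

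The IGF genes, the list of 46 further genes and the marker lists were chosen with earlier results of these data known, and the paper names Igf2 and Igfbp5 from these libraries. Named from the longer list are its called genes and up to 2 tested genes of highest mean CPM in each of 7 role groups. Grb2, Gab1 and Stc1 were named after their values were seen. For each IGF gene the 3 nearest genes by correlation are named. The FDRs of these lists are therefore not independent evidence. Promoter windows came from RefSeq (GRCr8), and transcript lengths and proteins were not used here.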

Additional observations from a re-analysis of the deposited data

Results flagged for a closer look

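In 58 groups of 4 rats (10 IGF genes and 19 named genes of the axis, 2 groups each), 7 held a rat far from the other 3, with a gap above Dixon's 95% critical value, which chance alone gives in about 1 of 20 groups. Among the IGF genes, Vehicle 2 was at 151 CPM for Igf1 against 247 to 260.1 CPM in the other vehicle rats. BAPN 1 was at 11.4 CPM for Igf2 against 6.12 to 6.90 CPM in the other BAPN rats. BAPN 2 was at 8.44 CPM for Igfbp2 against 0.146 to 1.41 CPM.

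Among the other genes of the axis, Vehicle 1 stood apart for Insr (50.8 CPM against 26.9 to 28.0 CPM), for M6pr (18.1 CPM against 13.7 to 14.5 CPM) and for Akt1 (210.2 CPM against 243 to 246.5 CPM). BAPN 4 stood apart for Irs2, at 34.3 CPM against 23.3 to 24.3 CPM. Vehicle 1 thus held 3 of the 7 flags, and the cause was not tested.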

How the results depend on the processing

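The count of 4 called IGF genes was 4 under DESeq2, limma-voom, the 4 other scalings, filterByExpr and thinning to the smallest library total, and 3 with no filter on low counts or with sex as a covariate. Among females alone it was 0 (0.762% of all tested genes were called), and with each rat left out it ranged from 2 (without Vehicle 1, 3.4% of all genes) to 4 (without Vehicle 2, 19%, or Vehicle 3, 10.4%). The count of 8 called genes of the wider axis was 14 under DESeq2 (27.4% of all genes) and 1 among females alone, and ranged from 4 (without BAPN 3, 6.38%, or Vehicle 1) to 12 (without Vehicle 2), with 5 without BAPN 4 (7.33%) or Vehicle 4 (8.24%). Without 1 rat, the counts of the wider axis followed the share of all genes called. No IGF gene was called for sex in any alternative. The replicate number does not mark a common animal, and same-numbered libraries had correlations of deviations from their group means of 0.09, -0.26, 0.27 and -0.14, with 1 of 4 BAPN libraries best with its own number. With the replicate block 2 IGF genes (Igf2 and Igf1r) and 5 genes of the wider axis were called, with the calls of Igfbp5 (FDR 0.0536), Igfbp6 (0.0543), Ghr, Irs2 and Pik3r1 lost in edgeR, where 4.76% of all tested genes were. Signs turned for values close to 0. Igf1 was 0.0073 with no filter, 0.0669 with sex as a covariate and 0.0956 among females alone, and ran from -0.1791 to 0.0569 with each rat left out. In those fits Igf2r ran from -0.2955 to 0.0195, Tmem219 from -0.0104 to 0.1526, Akt1 from -0.0984 to 0.0033 and Shc1 from -0.1186 to 0.0159. Tmem219 was -0.002 with library totals only. Females alone and fits without 1 rat use fewer animals, and the cause of the other changes was not tested. Igfbp2 varied between rats, from 7 reads in BAPN 4 to 428 in BAPN 2, and this spread did not follow the library totals.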
